A study of Mus musculus with 57 samples.

Results

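The 32 genes described here encode enzymes of cholesterol and fatty acid synthesis and the regulators that control them. They were taken from a fixed list by gene symbol, from the 55450 genes of the count table. There are 7 genes of the mevalonate pathway, 11 of the sterol branch that follows it, 6 regulators and sterol carriers, and 8 genes of fatty acid synthesis and desaturation. Mvd had 0 counts in every library, and the other 31 passed the filter on low counts in every comparison.

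RNA was measured in 57 libraries of sorted or replated mouse embryonic stem cells of the Sox1-EGFP/FoxA2mCherry line, a single clone in which EGFP replaces an allele of Sox1 and mCherry reports FOXA2. There were 3 biological replicates of each of 19 groups. At D0 the cells were in serum with LIF and only Sox1-FoxA2- cells were sorted. At D2, D4 and D6 of differentiation in N2B27 medium with 1 uM retinoic acid (RA), each of the 4 combinations of the reporters was sorted. The progeny came from Sox1-FoxA2+, Sox1+FoxA2- or Sox1+FoxA2+ cells sorted at D2, replated in serum without LIF but with 1 uM RA, and taken at D4 or D6 without a further sort. Serum was therefore in the medium at D0 and in progeny, and absent from the sorted cells of D2 to D6. Between D0 and D2 the medium, LIF, RA and time changed together. Between sorted cells and progeny the medium, replating and the sort on the day of harvest changed together. Neither set can be told apart. The gate named for progeny is that of the D2 sort, and their make-up at harvest was not set by a gate.

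Cells make cholesterol from acetyl-CoA through mevalonate, isoprenoids and squalene. The transcription factors SREBP2 (gene Srebf2) and SREBP1 (gene Srebf1) are held in the endoplasmic reticulum by SCAP and INSIG proteins when sterols are plentiful. When sterols are scarce, SCAP carries them to the Golgi, where they are cut, and their released parts enter the nucleus and switch on synthesis genes and INSIG1 itself. Serum supplies lipoproteins and fatty acids, and stem cells in medium poor in lipid depend more on their own synthesis.

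Promoter sequences of the members are shown first because SREBP proteins act there together with the factor NF-Y. The RefSeq promoter table (GRCm38.p6) held 33 promoters for 25 of the 32 members, each running from 250 bases before to 50 bases after the start. It had no entry for Fdps, Fdft1, Sqle, Stard4, Scd1, Scd2 and Fads1. The sterol regulatory element TCACNCCAC, searched on both strands, was in 1 of the 33 promoters (3.03%), that of Hmgcs1, and in 1.24% of all 32851 promoters. The NF-Y box CCAAT, which does not overlap that motif, was in 21 of 33 member promoters (63.6%) and in 37.4% of all promoters. It was present 2 or more times in 33.3% of member promoters and in 11.7% of all. The E-box CACGTG was in 18.2% of member promoters and 7.15% of all. The 250 bases before the start are given for 3 members, read 5′ to 3′ on the strand of the gene, with the matches in capitals (TCACNCCAC, and CCAAT or its reverse ATTGG). Hmgcs1 is shown as the holder of the sterol element, Idi1 for its large fall in progeny, and Nsdhl for its lack of overlap between progeny and sorted cells at D4.
Hmgcs1, chr13:119690101-119690350, plus strand: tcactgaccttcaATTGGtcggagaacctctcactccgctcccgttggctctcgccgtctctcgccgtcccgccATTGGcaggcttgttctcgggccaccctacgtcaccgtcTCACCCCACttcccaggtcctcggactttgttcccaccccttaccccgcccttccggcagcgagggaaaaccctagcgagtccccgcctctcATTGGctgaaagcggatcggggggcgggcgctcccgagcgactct
Idi1, chr13:8885356-8885605, plus strand: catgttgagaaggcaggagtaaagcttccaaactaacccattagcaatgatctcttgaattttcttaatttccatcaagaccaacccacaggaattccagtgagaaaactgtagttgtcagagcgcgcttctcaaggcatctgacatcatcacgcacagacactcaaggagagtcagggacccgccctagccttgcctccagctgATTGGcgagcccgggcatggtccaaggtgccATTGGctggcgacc
Nsdhl, chrX:72918271-72918520, plus strand: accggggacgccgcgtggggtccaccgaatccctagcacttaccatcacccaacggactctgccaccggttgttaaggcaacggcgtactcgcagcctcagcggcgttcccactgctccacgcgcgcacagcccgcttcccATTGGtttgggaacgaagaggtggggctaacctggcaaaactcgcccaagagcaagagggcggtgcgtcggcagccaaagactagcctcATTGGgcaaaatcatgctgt
The Hmgcs1 window held 1 sterol element and 3 NF-Y boxes, and those of Idi1 and Nsdhl held 2 NF-Y boxes each.

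Each library held between 10170600 and 81845700 counts (median 36694400), and 14458 to 27832 genes were detected. Foxa2 RNA marked the FoxA2+ gates, from 1646 to 3241 normalized counts in D2 Sox1-FoxA2+ cells and from 0 to 324 in D2 Sox1+FoxA2- cells, but D6 Sox1+FoxA2+ cells had 0, 77 and 728, so that this gate's label was not borne out by Foxa2 RNA in every library. Sox1 was at 0 in every library and checks nothing. Zeros were shared by genes that lie within others: all 465 protein-coding genes inside the span of others with some on the same strand, and all 822 inside genes of the opposite strand, had 0 counts, against 2.71% of other protein-coding genes. Mvd lies wholly within such a span, and Fdps (79.6% of exon bases), Lss (68.5%) and Hmgcs1 (46.6%) lie partly within them, so that their levels are understated. The second replicate of D4 Sox1+FoxA2+ cells stood apart with the lowest sterol index of all 57 libraries (defined below), and the D4 index, the counts of members called at D4 and their largest differences are also given without it. It was singled out by the level of members, while its 24908000 counts and 17482 genes detected lay within the range of the libraries. Values without it are therefore not independent support for lower members in progeny.

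To show the pathway in each library, the log2 ratio to the D0 mean was averaged over 15 mevalonate and sterol enzymes with at most 50% of their exon bases within other genes. The mean over these 15 enzymes was 0.80 ± 0.20 (SD, n = 12 libraries) at D2, 0.44 ± 0.91 (n = 12) in sorted D4 cells (0.68 ± 0.45, n = 11, without the library that stood apart) and 0.61 ± 0.36 (n = 12) in sorted D6 cells. In progeny it was -0.59 ± 0.30 (n = 9) at D4 and -0.72 ± 0.34 (n = 9) at D6. Every progeny library lay below every D2 library, and the 3 D0 libraries lay between -0.35 and 0.07. The 4 desaturases Scd1, Scd2, Fads1 and Fads2 moved over a wider range, at 2.65 ± 0.28 at D2 and 0.99 ± 0.34 in D6 progeny, and stayed above the D0 mean in progeny. The 4 enzymes that build the saturated chain (Acly, Acaca, Fasn, Elovl6) reached 0.34 ± 0.12 at D2 and -0.95 ± 0.13 in D6 progeny, below the D0 libraries.

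**Figure D1:**
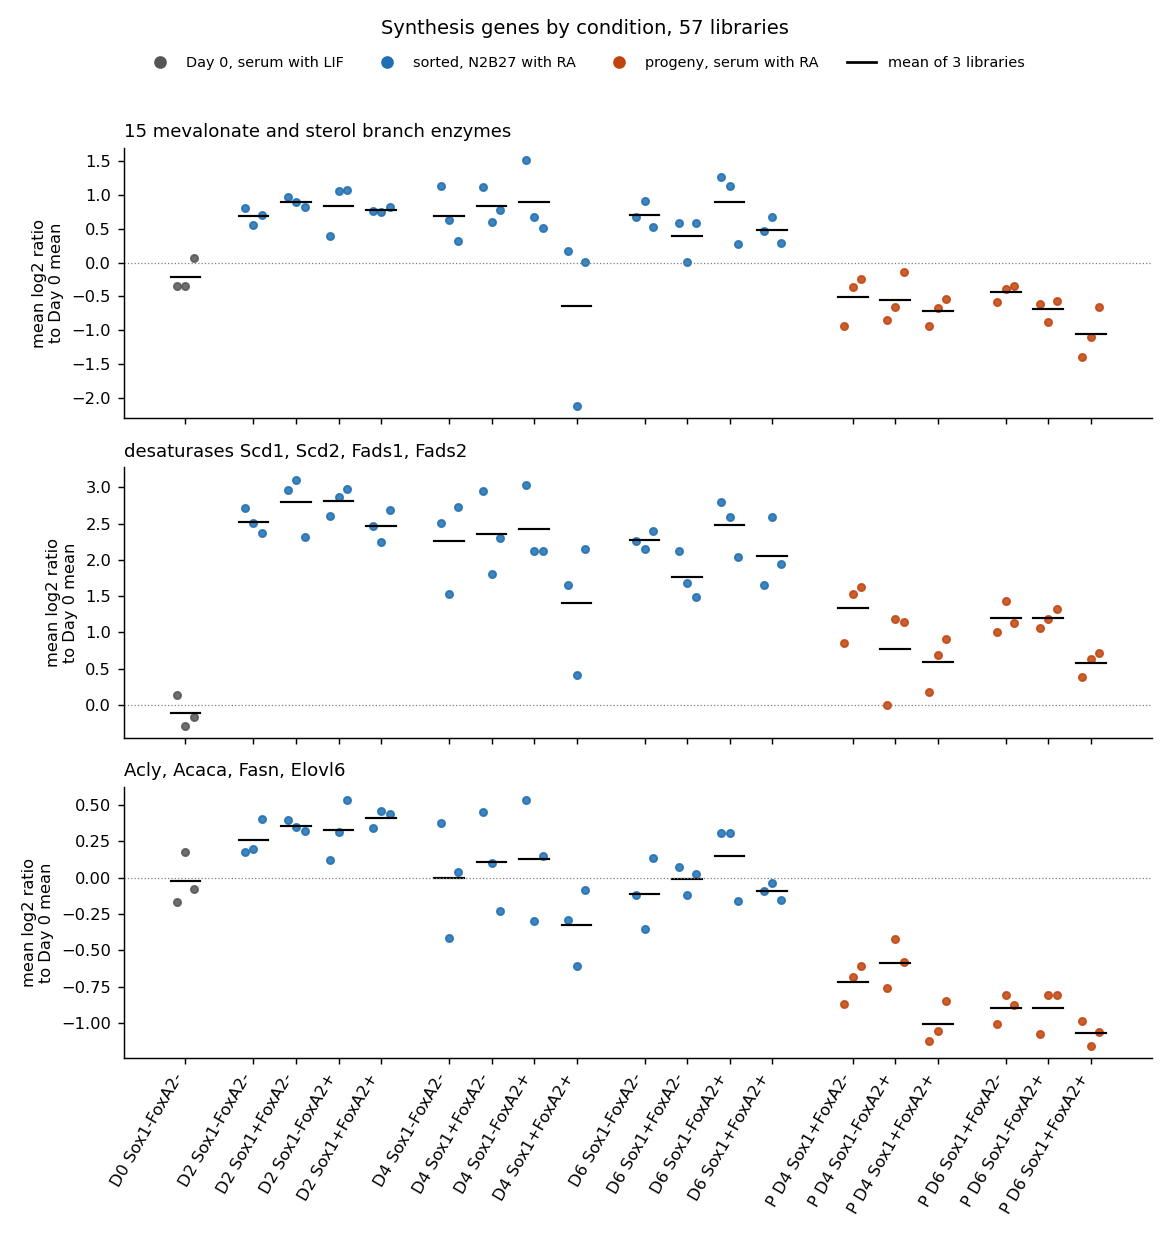
Mean log2 ratio to the D0 mean of 15 sterol enzymes, 4 desaturases and 4 chain-building enzymes (y axis, log2) in each of the 57 libraries, grouped by condition along the x axis; P marks progeny, points are libraries and bars are means of 3. Sterol enzymes lie above the D0 mean in sorted D2 to D6 cells and below it in progeny, but a single D4 Sox1+FoxA2+ library reaches -2.12. The other libraries of that group (0.17 and 0.01) lie close to the D0 mean. Desaturases lie above the D0 mean in sorted cells and, by less, in progeny. Chain-building enzymes lie near the D0 mean in sorted D4 and D6 cells and below it in progeny.

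The first comparison asked how the synthesis genes differed between D2 cells and the D0 stem cells. Of 31 members, 12 were higher at D2 and 0 were lower, or 38.7% against 3.03% of all 21037 genes higher and 4.11% lower (edgeR quasi-likelihood test, Benjamini-Hochberg adjusted p under 0.05, which is what called means throughout). The median log2 fold change of the members was 0.79, beside 0.07 over all genes. The 12 were 5 genes of fatty acid synthesis, 4 of the sterol branch, and Srebf1, Srebf2 and Insig1, and no gene of the mevalonate pathway passed.

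The 4 fatty acid desaturases, which place double bonds in fatty acids, rose. Scd1, which turns stearate into oleate, had 802, 1287 and 1558 normalized counts in the D0 libraries and from 6230 to 14807, with a median of 10149, in the 12 D2 libraries. No D2 library overlapped D0, and the log2 fold change was 3.13 ± 0.29 (SE, adjusted p = 3.3e-06). Its paralogue Scd2 went from 4452, 6619 and 6773 to between 22213 and 59540 with a median of 39625, a log2 fold change of 2.80 ± 0.22 (adjusted p = 6.38e-07). Fads2 and Fads1, which desaturate polyunsaturated fatty acids, rose by 2.49 ± 0.31 and 2.47 ± 0.47 on the log2 scale. Acaca, the acetyl-CoA carboxylase that commits carbon to fatty acids, rose by 0.79 ± 0.19 (adjusted p = 0.0134). Fasn, the fatty acid synthase, had 17169, 17777 and 28588 normalized counts at D0 and a median of 32142 (21068 to 44376) at D2, and its log2 fold change of 0.60 ± 0.22 did not pass (adjusted p = 0.103). Acly, which supplies cytosolic acetyl-CoA, and the elongase Elovl6 had log2 fold changes of -0.05 ± 0.18 and 0.18 ± 0.18 and did not pass.

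Among sterol enzymes, Sc5d, a late desaturase, rose by 2.86 ± 0.70 (adjusted p = 0.0148) and Cyp51, the lanosterol demethylase, by 1.89 ± 0.35 (adjusted p = 0.00212). Cyp51 had 356, 604 and 1268 normalized counts at D0 and 1714 to 3601 at D2, with no overlap. Fdft1, the squalene synthase, and Msmo1 both rose by 0.90 on the log2 scale, with SEs of 0.22 and 0.27. The Msmo1 call was lost in 4 of 5 alternative settings and in 13 of 15 fits that left out 1 library. That of Fdft1 was lost in 1 of 5 and in 2 of 15. Sqle, the squalene epoxidase, had 1849, 2097 and 2274 normalized counts at D0 and 2152 to 6032 at D2, and its log2 fold change of 0.78 ± 0.26 did not pass (adjusted p = 0.0745). Hmgcs1, which makes HMG-CoA, had 3699, 3994 and 6343 at D0 and 5565 to 13909 at D2 (log2 fold change 0.66 ± 0.23, adjusted p = 0.0892). Idi1, which interconverts the 5-carbon isoprenoid units, overlapped fully, with 769, 1078 and 1100 at D0 and a median of 1209 at D2. Every member that missed the test overlapped D0, and 9 of the 12 called members lay wholly above it, as did 420 of the 638 genes called higher (65.8%). Over all genes tested, 2.6% lay wholly above D0.

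Both SREBP genes rose. Srebf2 increased by 1.10 ± 0.24 (adjusted p = 0.00651) and Srebf1 by 1.28 ± 0.31 (adjusted p = 0.0135). Srebf1 had 715, 1565 and 1792 normalized counts at D0 and a median of 3281 (1340 to 5711) at D2, with the lowest D2 values in Sox1+FoxA2+ cells (1340, 1747 and 2438). Insig1, the sterol sensor that retains SCAP, went from 846, 1418 and 1761 to between 2446 and 5922 (log2 fold change 1.32 ± 0.31, adjusted p = 0.0111). By gate, the number of members higher than at D0 was 6 in Sox1-FoxA2- cells (background 1.18% of all genes), 11 in Sox1-FoxA2+ (2.2%), 11 in Sox1+FoxA2- (1.39%) and 10 in Sox1+FoxA2+ (2.24%). Cyp51, Fads1, Fads2, Scd1 and Scd2 were called in each of the 4 gates.

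Of 10 genes of fatty acid oxidation, 0 rose and 2 fell, Cpt1a (log2 fold change -3.49 ± 0.88), the carnitine transferase of the mitochondrial outer membrane, and Acadm (-1.21 ± 0.25). The 8 pluripotency markers moved at the same time, from a summed CPM (counts scaled to the library total after TMM adjustment) of 1139 to 2953 at D0 to between 118.5 and 1386 at D2. Their part in these differences was not tested. In bulk libraries such as these, fewer cells of a type and less RNA per cell cannot be told apart.

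**Figure D2:**
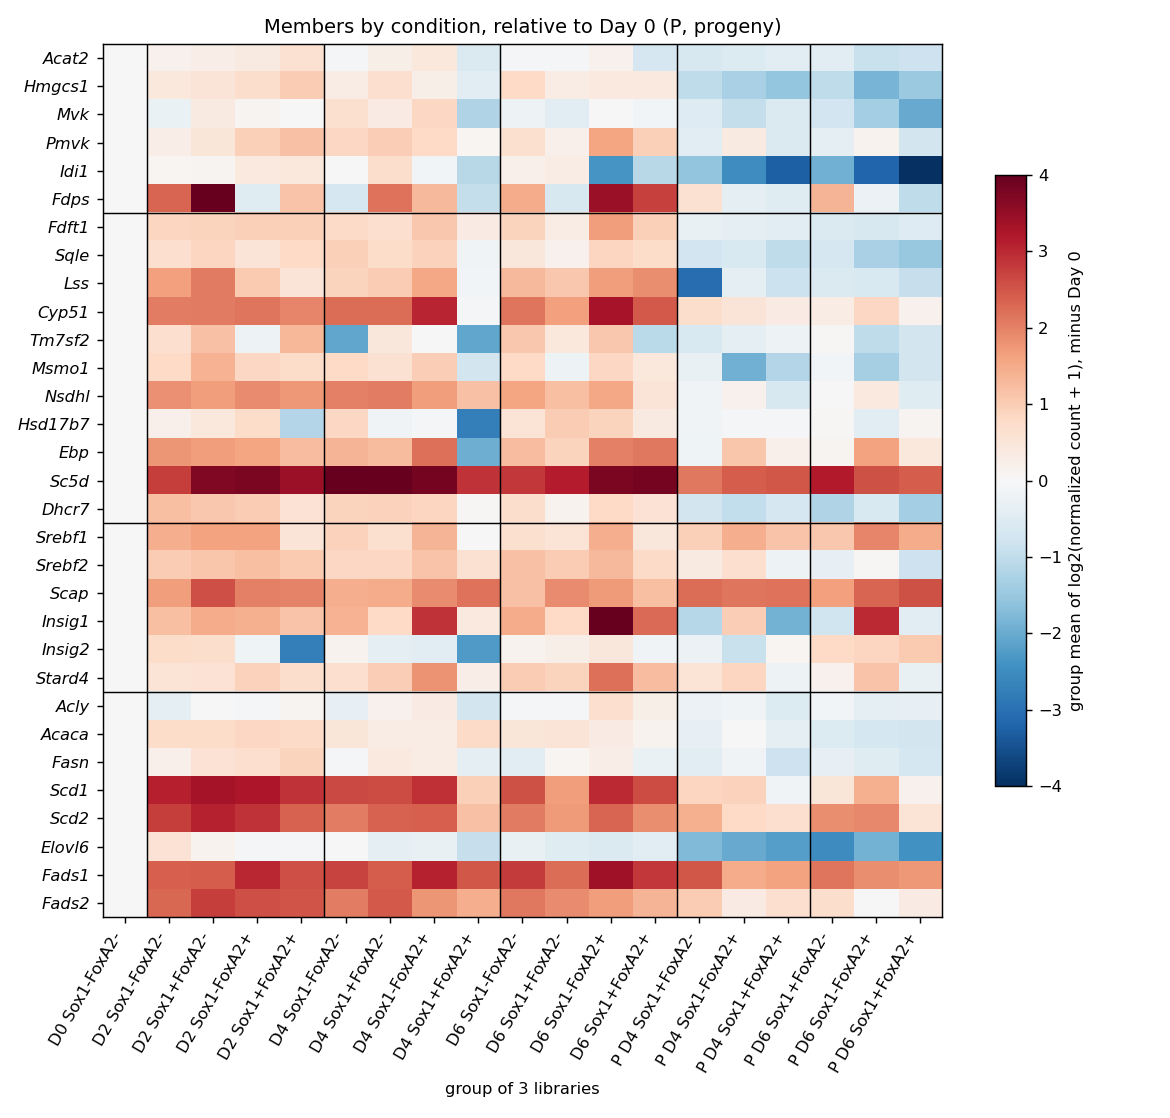
Group means of log2(normalized count + 1) minus the D0 mean for the 31 members with counts (rows, in the order of the pathway, with black lines between the 4 gene groups) in the 19 groups (columns, 3 libraries each); red is above D0, blue below, and colours saturate at 4. Sc5d, Scd2, Fads1 and Fads2 lie above D0 in every other group, whereas Hmgcs1, Idi1 and Elovl6 are blue in each progeny group.

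Across the sorted days the medium stayed the same. From D2 to D6, 1 member rose (7.23% of all 28080 genes rose) and 6 fell (2.53% of all genes fell), and the members' median log2 fold change was -0.31 beside 0.38 for all genes. With DESeq2 size factors the median of all genes was 0.56 and the share of higher genes among all called went from 74.1% to 88.8%. The 6 that fell all belong to fatty acid synthesis: Fads2 (-0.97 ± 0.19), Scd2 (-0.94 ± 0.20), Fasn (-0.85 ± 0.16), Scd1 (-0.79 ± 0.25), Elovl6 (-0.73 ± 0.21) and Acaca (-0.57 ± 0.16). Fasn went from a median of 32142 normalized counts in the 12 D2 libraries to 19603 (10887 to 29597) in the 12 D6 libraries, and the days overlapped for every member called. No gene of the sterol branch or mevalonate pathway passed, with log2 fold changes of -0.31 ± 0.20 for Hmgcs1 and -0.28 ± 0.22 for Sqle.

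Insig1 was the member that rose. Its average increase of 0.76 ± 0.23 (adjusted p = 0.0299) came with very unequal values among the gates. In Sox1-FoxA2+ cells Insig1 had 2446, 2816 and 5922 normalized counts at D2, 7943, 9023 and 11821 at D4, rising to 14142, 22016 and 28646 at D6. The Sox1+FoxA2- values were 2904, 3007 and 5375 at D2, 1755, 2361 and 2750 at D4, and 2047, 2181 and 2548 at D6. Sox1+FoxA2+ cells had 1760, 10167 and 13367 at D6. Outside these 3 D6 Sox1-FoxA2+ libraries, a single library of the 57 was above 14142, at 15590 in D6 progeny of the same gate.

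Tested directly, the change of Insig1 from D2 to D6 in the Sox1-FoxA2+ gate exceeded that in the Sox1+FoxA2- gate by 3.48 ± 0.66 (log2) (adjusted p = 0.0102), where 0.107% of all genes had a higher change. It was called in the Sox1-FoxA2+ gate, at 2.49 ± 0.48 (adjusted p = 0.00354, background 0.313%), and was -0.99 ± 0.46 (adjusted p = 0.572) in the Sox1+FoxA2- gate. No other member of the 31 was called in this test, and the next smallest p belonged to Fdft1 (1.32 ± 0.55, adjusted p = 0.526) and Cyp51 (1.71 ± 0.76, adjusted p = 0.563).

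The progeny were then compared, day by day and gate by gate, with cells sorted directly. At D4, 14 of 31 members were lower in progeny and 0 were higher, while 3.52% of all 24857 genes were lower and 3.49% higher. At D6, 17 were lower and 1 was higher, while 6.95% of all 25515 genes were lower and 7.04% higher. The median log2 fold change of the members was -0.78 at D4 and -1.10 at D6, beside -0.21 at both days for all genes. With DESeq2 size factors the D6 median of all genes was -0.34 and the share of higher genes among all called at D6 went from 50.3% to 39.7%. By role, 2 of 6 mevalonate genes, 7 of 11 of the sterol branch, 1 of 6 regulators and 4 of 8 of fatty acid synthesis were lower at D4, and 3, 6, 3 and 5 at D6. No library was shared between the 2 days, and 12 members were lower in both, which is 85.7% of those at D4 and 70.6% of those at D6. Over all genes 525 were lower in both, which is 60% of the 875 at D4 and 29.6% of the 1774 at D6.

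The sterol enzymes carried the largest differences. Idi1 was lower by -2.18 ± 0.35 (log2, adjusted p = 0.000291) at D4, where the 9 progeny libraries had 83 to 422 normalized counts and the 9 sorted ones 321 to 2063. At D6 it was lower by -2.46 ± 0.76 (adjusted p = 0.0316), from 0 to 440 in progeny against 9 to 1978 in sorted cells, where replicates numbered 3 of Sox1-FoxA2+ (9) and Sox1+FoxA2+ cells (74) were as low as progeny. The D6 call of Idi1 was lost with the replicate block and in 8 of 18 fits that left out 1 library (adjusted p up to 0.0605), and its D4 call in none. Hmgcs1 differed by -1.38 ± 0.21 at D4 and -1.74 ± 0.24 at D6, and its D6 progeny libraries (962 to 2359) did not overlap the sorted ones (3837 to 12571). Sqle was 2.30-fold lower at D4 and differed by -1.68 ± 0.28 at D6, with 479 to 1383 in D6 progeny and 1863 to 8020 in sorted D6 cells. Both genes were lower in all 9 D6 progeny libraries than in any sorted D6 library of these gates.

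Lss, the cyclase that makes lanosterol, was lower at D6 by -2.29 ± 0.42 (adjusted p = 0.000599) and had -1.96 ± 0.64 (adjusted p = 0.0617) at D4. Cyp51 was lower by -1.41 ± 0.37 at D4 and -1.91 ± 0.24 (adjusted p = 9.45e-06) at D6, and Dhcr7, which makes cholesterol from 7-dehydrocholesterol, by -1.45 ± 0.33 and -1.39 ± 0.33. Nsdhl, a decarboxylase, was lower at D4 by -1.69 ± 0.32, with 141 to 494 in progeny and 634 to 1504 in sorted cells. Nsdhl was the only called member whose D4 groups did not overlap, where 0.169% of all genes lay wholly lower in progeny. At D6 the 6 without overlap were Hmgcs1, Sqle, Lss, Cyp51, Dhcr7 and Elovl6, where 0.302% of all genes and 4.11% of those called lower lay wholly lower. Without the second D4 Sox1+FoxA2+ library, which had 84 normalized counts of Cyp51 where the others of its group had 1450 and 1977, 15 members were lower at D4, and Lss (-2.15, adjusted p = 0.00945) and Scd2 (-1.08, adjusted p = 0.0144) were among them. The share of all genes called lower in that fit is not given here, so this count has no background beside it. Idi1 then differed by -2.26, Hmgcs1 by -1.35, Cyp51 by -1.59 and Nsdhl by -1.72, and 7 members lay wholly lower in progeny, beside 0.274% of all genes.

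The regulators did not move together. Srebf2 was lower in D6 progeny by -1.21 ± 0.19 (adjusted p = 0.000117) and had -0.63 ± 0.23 at D4 (adjusted p = 0.0938). Srebf1 was higher in D6 progeny by 0.79 ± 0.23 (adjusted p = 0.0222), with 2263 to 6054 normalized counts against 910 to 6236, and had 0.41 ± 0.27 at D4. Insig1 was lower by -1.73 ± 0.33 at D4 and -1.73 ± 0.30 at D6, and Stard4, a carrier of cholesterol between membranes, by -1.10 ± 0.28 at D6. Scap and Insig2 did not pass at either day, with D6 values of 0.70 ± 0.29 and 0.85 ± 0.36.

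In fatty acid synthesis, Elovl6, which lengthens palmitate to stearate, was lower by -1.46 ± 0.26 at D4 and -1.64 ± 0.22 (adjusted p = 2.46e-05) at D6. Its D6 values were 1126 to 2815 in progeny and 3360 to 8540 in sorted cells. Scd1 was lower by -1.65 ± 0.30 and -1.66 ± 0.26, with 1112 to 4139 normalized counts in D6 progeny and 2847 to 15775 in sorted D6 cells. Scd2 had a smaller difference of -0.95 ± 0.30 (adjusted p = 0.0579) at D4 and -0.35 ± 0.20 (adjusted p = 0.256) at D6. Fasn had 11354 to 17720 in D6 progeny and 10887 to 29597 in sorted D6 cells, with -0.41 ± 0.18 (adjusted p = 0.134), and Acly -0.45 ± 0.18 (adjusted p = 0.104). Neither passed at D4. Acaca was called lower at both days, but its D4 call, like that of Sc5d, was lost in 17 of 18 fits that left out 1 library.

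Within single gates fewer members passed. At D4, 0 were lower in Sox1-FoxA2+ progeny (background 0.0443%), 1 in Sox1+FoxA2- (Hmgcs1, background 0.0966%) and 0 in Sox1+FoxA2+ (0.314%). These D4 counts rest on the library that stood apart, which enters the shared estimate of the spread: without it they were 5 (Cyp51, Msmo1, Scd1, Elovl6 and Fdft1, beside 0.0928% of all genes), 2 (Hmgcs1 and Scd1, 0.249%) and 2 (Scd1 and Elovl6, 0.271%). That library was picked for its low values of members, so the larger counts are not independent support. At D6 there were 3 in Sox1-FoxA2+ (Cyp51, Hmgcs1 and Fdft1, background 0.0274%), 1 in Sox1+FoxA2- (Elovl6, 1.35%) and 8 in Sox1+FoxA2+ (0.764%). Further tests asked whether the difference between progeny and sorted cells itself differed between the Sox1-FoxA2+ and Sox1+FoxA2- gates. They called 0 of 31 members at either day by edgeR and by DESeq2. At an unadjusted p under 0.05 were 1189 of 24857 genes at D4 and 2795 of 25515 at D6. Without the library that stood apart, the D4 test called 0 of 26934 genes higher and 2 lower. That 0 members were called therefore does not show that the gates changed alike.

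Among genes of neighbouring pathways, Abca1, which exports cholesterol, was higher in progeny by 1.94 ± 0.27 at D4 and 2.60 ± 0.55 at D6, and Apoe, its lipid acceptor, was 2.83-fold lower at D4 and lower by -2.25 ± 0.34 at D6. Of 10 genes of fatty acid oxidation 3 were higher at D6 and 0 lower. Of 9 lipid droplet genes, Plin2, which coats droplets, was higher at D6 by 1.34 ± 0.24 and Cidea lower by -4.17 ± 1.28. Alongside, the 7 serum response and contractile markers summed to 457 to 3092 CPM in progeny and 14.2 to 532 CPM in sorted D2 to D6 cells, with Srf at 0 in both. The 6 neural crest and mesenchyme markers summed to 16.4 to 1816 CPM in progeny and 1.60 to 495 CPM in those sorted cells, with Foxd3 at 0. Of the 9 neuroectoderm markers, 7 were tested, 4 were higher and 1 lower at D4, and 5 higher and 1 lower at D6. They summed to 564.9 to 2090 CPM in D4 progeny and 272.3 to 1116 CPM in sorted D4 cells, and to 224.3 to 2429 and 141.3 to 821 CPM at D6, with Sox1 at 0. Their part in these differences was not tested.

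**Figure D3:**
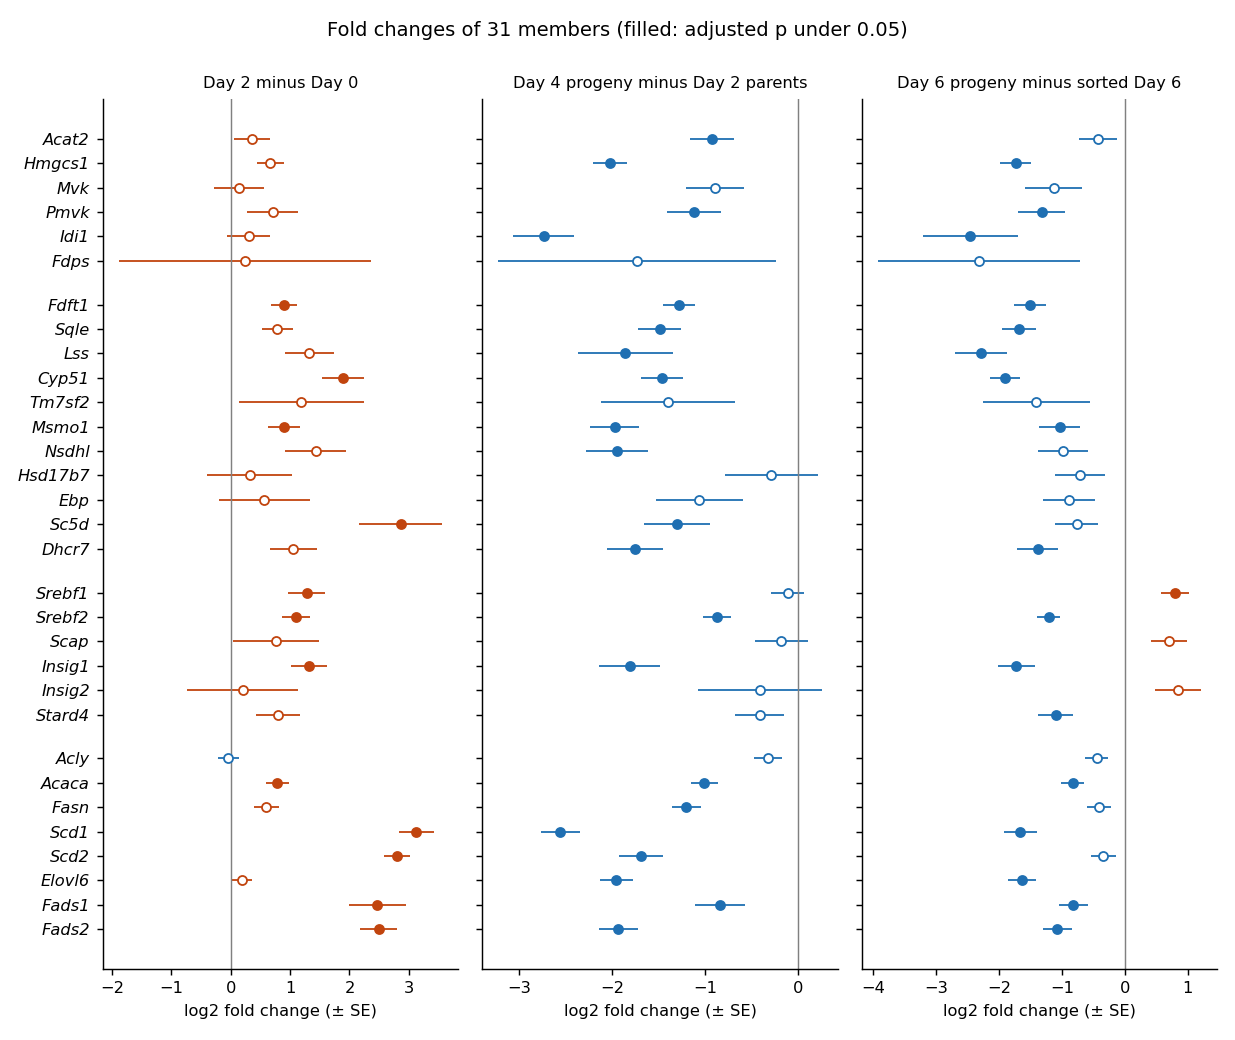
Log2 fold changes with SE bars (x axis) of the 31 members with counts (rows, in the order of the pathway) for D2 against D0, D4 progeny against D2 cells of the same gates, and D6 progeny against sorted D6 cells. Filled points have an adjusted p under 0.05; in the middle panel every point is below 0, and in the right panel Srebf1, Scap and Insig2 are above it.

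Set against the D2 cells from which they derived, D4 progeny showed the widest change. Of 31 members 21 were lower and 0 higher, where 4.13% of all 22909 genes were lower and 7.36% higher, and the median of -1.30 stood beside 0.17 for all genes. This comparison uses the same progeny libraries as that with sorted D4 cells and the same D2 libraries as that with D0. The 5 largest were Idi1 (-2.73 ± 0.33, 6.66-fold lower), Scd1 (-2.55 ± 0.21), Hmgcs1 (-2.02 ± 0.18), Msmo1 (-1.97 ± 0.27) and Elovl6 (-1.95 ± 0.18). Hmgcs1 had 5565 to 13909 normalized counts in the 9 D2 libraries and 1482 to 2812 in the 9 progeny libraries, and Idi1 had 654 to 1995 and 83 to 422. In 12 of the 21 (38.7% of members, beside 0.777% of all genes) every progeny library lay below every D2 library, among them Sqle (-1.49 ± 0.23), Fdft1, Scd2 (-1.68 ± 0.24) and Acaca. Fasn was 2.30-fold lower (adjusted p = 9.3e-06), from a D2 median of 33283 to 14265, and Srebf2 by -0.87 ± 0.15, while Srebf1 had -0.11 ± 0.18 and did not pass. In single gates Insig1 was lower in Sox1+FoxA2- (-2.31) and Sox1+FoxA2+ progeny (-3.00) and had -0.11 ± 0.55 in Sox1-FoxA2+ progeny.

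Against the D0 stem cells, which were in serum too, D4 progeny had 2 members higher and 3 lower, where 11.0% of all 21326 genes were higher and 9.73% lower, so that the members' shares of 6.45% and 9.68% were near the background. Idi1 (-2.42 ± 0.43), Elovl6 (-1.96 ± 0.26) and Hmgcs1 (-1.32 ± 0.27) were lower with no overlap, and Fads1 (1.69 ± 0.47) and Srebf1 (2.11-fold) were higher, Srebf1 with 2157 to 3758 normalized counts against 715 to 1792. Called or not, 6 members lay wholly below D0 and 1 wholly above, beside 8.21% and 9.01% of all genes. Of all genes called lower, 70.4% lay wholly below. From D4 to D6 the progeny differed in 1 member, Srebf2, which fell by 0.63 ± 0.14 on the log2 scale (adjusted p = 0.0116), and 0 rose, where 0.895% of all genes fell and 1.1% rose. Insig2 (1.05 ± 0.31, adjusted p = 0.0813) and Insig1 (1.05 ± 0.31, adjusted p = 0.083) came next and did not pass.

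The last comparisons set Sox1-FoxA2+ against Sox1+FoxA2- cells within a day and medium. At D2, 0 of 31 members were called in either direction, as were 0 of all genes (0.0% higher and 0.0% lower by edgeR, with 1037 of 20369 genes at an unadjusted p under 0.05 and 346 called by DESeq2, none of them members). The smallest p among members belonged to Lss (-1.01 ± 0.43), Msmo1 (-0.56 ± 0.26) and Fdps (-3.36 ± 2.67), none of which passed. At D4, 1 member was higher and 0 lower (0.179% and 0.0479% of all genes), and at D6 again 1 and 0 (0.843% and 0.244%). In D4 progeny 0 were called either way by edgeR, where 1.39% and 0.469% of all genes were, with 2099 at an unadjusted p under 0.05. DESeq2 called 1 member there, and its share of all genes is not given here. In D6 progeny 3 were higher and 0 lower by edgeR (3.49% and 3.28%).

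Insig1 was the member called in sorted cells. At D4 the Sox1-FoxA2+ values of 7943 to 11821 lay above the 1755 to 2750 of Sox1+FoxA2- cells (log2 fold change 2.10 ± 0.41, adjusted p = 0.0379), a call that was lost when any of 4 single libraries was left out. Stard4 (0.85 ± 0.43) and Fads2 (-0.65 ± 0.47) had the next smallest p and did not pass. At D6 the difference was 3.46 ± 0.58 (11.0-fold, adjusted p = 0.00198). In D4 progeny Insig1 had 1183, 2101 and 6658 normalized counts against 233, 713 and 1193 (2.23 ± 0.62, adjusted p = 0.0924). In D6 progeny it had 4706, 14088 and 15590 against 702, 760 and 762 (3.90 ± 0.38, 14.9-fold, adjusted p = 5.37e-05). Progeny of Sox1+FoxA2+ cells had 790 to 1210 at D6. In the same D6 progeny Sqle had 729, 810 and 1033 against 1145 to 1383, and Hmgcs1 had 962, 1301 and 1520 against 2046 to 2359, and neither passed (-0.63 ± 0.32, adjusted p = 0.345, and -0.88 ± 0.26, adjusted p = 0.0667).

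The other members called in D6 progeny were Srebf1, with 4346, 4582 and 6054 against 2263, 2545 and 3267 (0.84 ± 0.22, adjusted p = 0.0346), and Stard4, with 2525, 3008 and 3073 against 1215, 1534 and 1660 (0.92 ± 0.24, adjusted p = 0.0367). The Srebf1 call was lost in 4 of 6 fits that left out 1 library, and the Stard4 call in 5 of 6. Scd1 had 2008, 3615 and 4139 against 1544, 1592 and 1839 (0.92 ± 0.27, adjusted p = 0.0586). In sorted D6 cells Cyp51 did not overlap, with 5470, 6484 and 7518 in Sox1-FoxA2+ and 1540, 1842 and 2880 in Sox1+FoxA2- cells (1.83 ± 0.47, adjusted p = 0.0589). Lack of overlap was common there: 9 members lay wholly higher and 1 wholly lower, beside 6.97% and 16.3% of all genes. The replicate numbers paired the libraries in sorted D4 and D6 cells and in D4 progeny. With the replicate as a block, Cyp51 (adjusted p = 0.0116), Fdft1 (1.47, adjusted p = 0.0397) and Scd1 (adjusted p = 0.0387) were also called in sorted D6 cells, and Insig1 (2.10, adjusted p = 0.000846), Msmo1 (-1.49, adjusted p = 0.0434) and Fads1 (-0.95, adjusted p = 0.0284) were called in D4 progeny. The share of all genes called with the block is not given here, so these added calls have no background beside them.

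Some genes of neighbouring pathways were called between these gates. Of all genes, 0.843% were higher and 0.244% lower in sorted D6 cells, and 3.49% and 3.28% in D6 progeny. The 9 genes of lipoprotein assembly and secretion summed to 619.9 to 2957 CPM in sorted D6 Sox1-FoxA2+ cells and 175.7 to 293.2 CPM in Sox1+FoxA2- cells. In D6 progeny they summed to 2325 to 3643 and 183 to 313.7 CPM. Calls among them are not given here. Of 15 genes tested of other fatty acid and lipid synthesis, 1 was higher in sorted D6 Sox1-FoxA2+ cells and 0 lower, and in D6 progeny 1 was higher and 1 lower. The higher one was Me1, which supplies NADPH for synthesis (2.30 ± 0.47 and 2.31 ± 0.30), and the lower one Elovl5 (-0.95 ± 0.26). Of 9 lipid droplet genes tested in sorted D6 cells 1 was higher and 0 lower, and of 8 in D6 progeny 1 was higher and 2 lower. Fabp3, a carrier of fatty acids, was the higher one in both (6.12 ± 0.76 and 3.98 ± 0.41), and Fabp5 (-1.90 ± 0.36) and Plin2 (-1.08 ± 0.25) were lower. Of 9 genes of SREBP processing and degradation, 1 was higher in sorted D6 cells and 2 in D6 progeny, and 0 were lower. Sec24d, a component of the vesicle coat that carries cargo out of the endoplasmic reticulum, was higher in both (2.24 ± 0.53 and 1.55 ± 0.29). Of 10 genes of sterol export 1 was higher at each, Soat1, which esterifies cholesterol, and 0 lower, and of 10 genes of fatty acid oxidation 0 were called in sorted D6 cells and 2 were lower in D6 progeny. The 15 endoderm markers summed to 21560 to 57070 CPM in sorted D6 Sox1-FoxA2+ cells and 259 to 358 CPM in Sox1+FoxA2- cells, and to 32770 to 59030 and 1266 to 3844 CPM in the D6 progeny. Their part in the Insig1 difference was not tested.

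**Figure D4:**
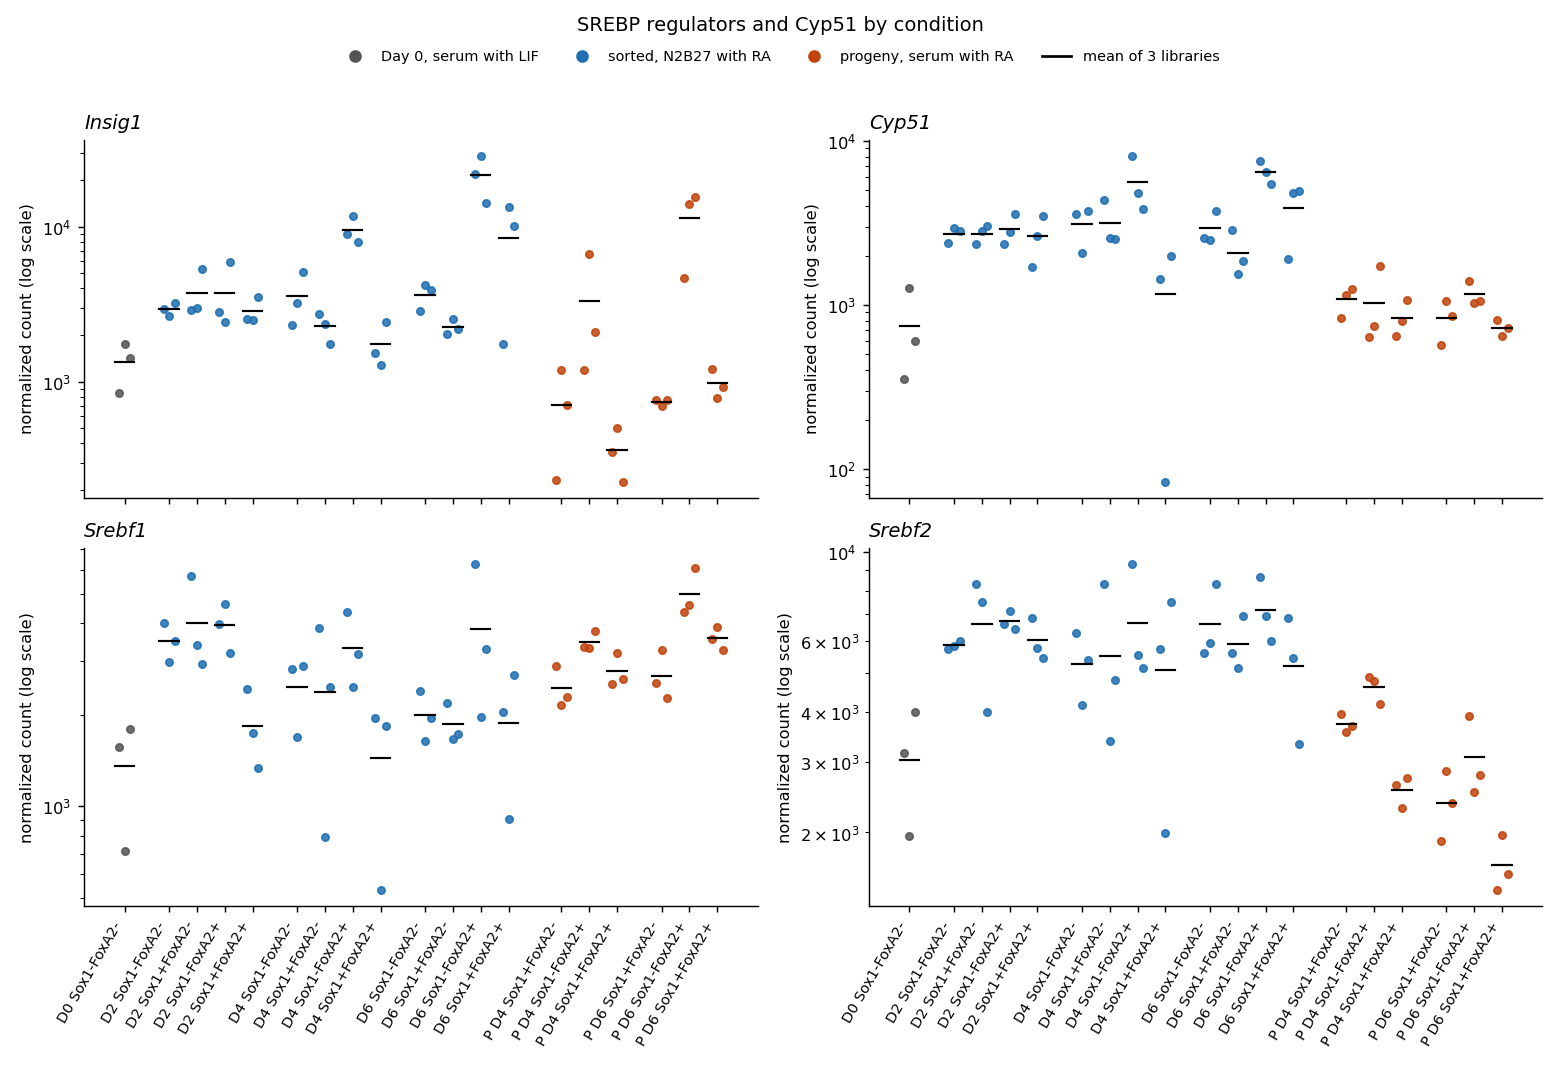
Normalized counts (y axis, log scale) of Insig1, Cyp51, Srebf1 and Srebf2 in each library by condition (x axis; P marks progeny), with bars at the means of 3 libraries. Insig1 reaches its highest values in D6 Sox1-FoxA2+ cells and is also high in D6 progeny of Sox1-FoxA2+ cells sorted at D2, where Cyp51 and Srebf2 are low; the lowest Cyp51 value is the second D4 Sox1+FoxA2+ library.

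Per kilobase of exon outside other genes, Scd2 had the highest mean level of the members in sorted D2 to D6 cells, with 5678 normalized counts per kilobase, and in progeny, with 2841. At D0 it had 1101 and Acly led with 2613. Acly (2710), Hmgcs1 (2661) and Fasn (2277) came next in sorted cells. Over the 57 libraries, the genes whose log2 level followed the mean of the sterol and mevalonate genes most closely included Idh1 (Pearson r = 0.83), Acsl3 (0.79), Apoe (0.79), Sgsm1 (0.73), Arrdc4 (0.72), Uqcrb (0.71), Hist1h2ag (0.70), Lbr (0.70) and Hist1h4j (0.69), of 13892 genes; the histone genes have near-identical copies and are uncertain. Abca1 had -0.62. Among the members outside the enzymes, Scd1 had r = 0.88 and Srebf2 0.80 with the enzymes' mean, but Srebf1 0.06, Insig2 0.08 and Scap -0.19. The libraries share medium, day and gate, so these values are a description.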

How the data were processed

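RNA-seq was done in 57 libraries of about 500 mouse cells, amplified with the SMART-Seq Stranded kit, 3 per group in 19 groups taken from the labels. The authors aligned reads with STAR to GENCODE M21 (GRCm38) and counted them with featureCounts, and the deposited values are unscaled raw counts. The tool versions and the strand setting are not given in the sources used here. The 92 rows that name no gene hold 0 counts. Symbols came from the M21 annotation.

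Genes were tested in edgeR 4.0.16 (R 4.3.3) with the quasi-likelihood test, TMM scaling, a minimum count of 10 and total of 15, a prior count of 0.125 and group means without covariates. Tests are two-sided, with Benjamini-Hochberg adjustment over all genes. Normalized counts used DESeq2 1.42.0 size factors. The fit was tested on simulated data, where calls of genes averaging under 500 counts were less often recovered and more often false than those of other genes. Idi1 was the only called member below that mean, in D6 progeny against sorted cells and D4 progeny against D0. p-values measure the spread between 3 replicates per group. Comparisons that average gates treat all their libraries as independent. Same-numbered libraries of the Sox1-FoxA2+ and Sox1+FoxA2- gates correlated in sorted D4 and D6 cells and in D4 progeny. The p-values of comparisons that average gates, and the SDs taken over several gates, may therefore be too small. In comparisons between those gates, p-values that ignore the pairing may instead be too large. With total counts of 10170600 or more per library, low members such as Fdps, Tm7sf2 and Insig2 are measured with wide errors.

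The members, lists and named genes were chosen with earlier results of these data known. Named in a comparison are the up to 5 called members with the largest changes in each direction, the 3 with the smallest p where fewer than 3 were called, and throughout Hmgcs1, Idi1, Sqle, Insig1, Srebf1, Srebf2, Fasn, Scd1 and Scd2. Other members and neighbouring genes were named after their values were seen, and some genes outside the members are not reported here. The promoters of Idi1 and Nsdhl were picked after the motif search. Marker lists were summed as CPM with TMM scaling. Alternatives were DESeq2's Wald test and size factors, no filter, the replicate block, other sets of libraries in the fit, and each library left out. Fits by gate and over sorted days without the D4 library that stood apart were added after the data were seen. Replicate numbers were taken to pair libraries where all 3 correlations of their deviations over 5000 genes were above 0.1: D4 (0.204 to 0.505), D6 (0.123 to 0.198) and D4 progeny (0.275 to 0.557), for Sox1-FoxA2+ with Sox1+FoxA2- cells.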

Additional observations from a re-analysis of the deposited data

Results flagged for a closer look

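The change of Insig1 from D2 to D6 differed between gates: it was larger in Sox1-FoxA2+ than in Sox1+FoxA2- sorted cells by 3.48 ± 0.66 on the log2 scale (SE, adjusted p = 0.0102, edgeR quasi-likelihood test of the interaction). All 3 D6 Sox1-FoxA2+ libraries (14142 to 28646 normalized counts) were above the D2 libraries of that gate (2446 to 5922), and all 3 D6 Sox1+FoxA2- libraries (2047 to 2548) were below those of theirs (2904 to 5375).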

How the results depend on the processing

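No called member changed direction under any alternative. The calls kept under every alternative and with each library left out were 6 of 12 for D2 against D0 (Cyp51, Srebf2, Fads1, Fads2, Scd1 and Scd2), 10 of 14 for D4 and 14 of 18 for D6 progeny against sorted cells, 16 of 21 for D4 progeny against D2 cells, 3 of 5 for D4 progeny against D0, 1 of 7 for sorted D6 against D2 (Fasn), and Insig1 between gates at D6 in sorted cells and progeny. The number of called members moved by over 1.5 times as follows, and the cause was not tested. The shares of all genes called under these settings are not given here, so a larger count need not be particular to the members. For sorted D6 against D2 it was 4 with DESeq2 size factors. For D6 against D4 progeny it was 3 without a filter, 3 with the replicate block, 4 by DESeq2's Wald test and 0 with all 57 libraries in the fit, in place of 1. For D4 progeny against D0 it was 8 without a filter, 8 with the replicate block and 11 by the Wald test, in place of 5. For the Sox1-FoxA2+ gate against Sox1+FoxA2- it was 0 at D4 with all 57 libraries, in place of 1. At D6 it was 3 without a filter, 4 with the replicate block, 2 by the Wald test, 2 with all 57 libraries and 3 with only the 6 compared, in place of 1. In D4 progeny it was 1 without a filter, 3 with the replicate block and 1 by the Wald test, in place of 0, and in D6 progeny 5 without a filter, 7 by the Wald test and 1 with all 57, in place of 3. The replicate block moved no other count of called members by over 1.5 times.

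With libraries left out, called members ranged from 8 to 13 for D2 against D0, 2 to 5 for sorted D6 against D2 (2 without replicates numbered 3), 10 to 15 at D4 and 14 to 19 at D6 for progeny against sorted cells, 16 to 22 for D4 progeny against D2 cells, 3 to 7 for D4 progeny against D0 (3 without replicates numbered 3) and 1 to 2 for D6 against D4 progeny (2 without replicates numbered 1). Between the gates they ranged from 0 to 1 at D4 (0 without Sox1-FoxA2+ replicate 1 or 2 or Sox1+FoxA2- replicate 2 or 3), 1 to 2 at D6 (2 without Sox1-FoxA2+ replicate 3), 0 to 1 in D4 progeny (1 without Sox1-FoxA2+ replicate 1 or 3 or Sox1+FoxA2- replicate 2) and 1 to 6 in D6 progeny. In the last, 6 were called without Sox1-FoxA2+ replicate 1, and 1 without its replicate 2 or 3 or without Sox1+FoxA2- replicate 1 or 3. The shares of all genes called in these fits are not given here. Of 608 group means of members, 583 moved by less than 1 SD with TMM scaling. Without the second replicate of sorted D4 Sox1+FoxA2+ cells, an alternative chosen after seeing the data, the members lower in D4 progeny went from 0 to 5 in the Sox1-FoxA2+ gate, from 1 to 2 in Sox1+FoxA2- and from 0 to 2 in Sox1+FoxA2+, Srebf1 was also called from D2 to D6 (-0.70, adjusted p = 0.0442), and Insig1 was still called between gates at D4 (adjusted p = 0.014).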
